A study of Rattus norvegicus with 2 samples.

Results

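The blood-cell miRNAs studied here are those that red and white blood cells carry, and they were read as markers of blood or serum RNA in exosomes from cultured heart cells. They were chosen by name alone, as every row of the count table for miR-451a, miR-144, miR-486, miR-142, miR-150 or miR-223, on either arm of the hairpin. The rule found 12 of the 635 rows. The rows mmu-miR-486b-5p and mmu-miR-486b-3p repeat the counts of mmu-miR-486a-5p and mmu-miR-486a-3p, so 10 miRNAs were counted, 4 of them erythroid and 6 leukocyte. No row named mmu-miR-144-3p is in the count table used here, and that miRNA is not analysed.

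Small RNA was sequenced from exosomes in the culture medium of cardiomyocytes of newborn Wistar rats. The exosomes were taken from the medium with a commercial isolation reagent. The cells were starved of serum and then cultured for 48 h. Exosomes of cells that received no angiotensin II (Ang II) are named NC-Exo, and those of cells that received 1 μmol/L Ang II are named HC-Exo. Each condition had a single library, and no comparison of the libraries has a replicate check. The hearts were digested with collagenase and trypsin, fetal calf serum was used to stop each round, and cardiomyocytes were enriched by differential adhesion and plated with BrdU. They were enriched, not sorted, so other cells of the heart may be present in the culture. The total was 102608 miRNA reads in NC-Exo against 133155 in HC-Exo, and levels are given as reads per 1000000 miRNA reads (RPM). At these totals a lone read is 9.75 RPM for NC-Exo and 7.51 RPM for HC-Exo. Intervals in parentheses are at 95%, exact (Clopper-Pearson), and show the error of counting alone. They treat each read as an independent molecule. Reads copied by PCR are not, so the intervals may be too narrow even for that error. Rows are named as mouse miRNAs, while the cells were of rats and the serum of calves, and which species a read came from was not tested. More vesicles of a cell type and more copies in each vesicle cannot be told apart in these libraries. Nor can miRNA inside vesicles be told from any miRNA outside them that was collected with them.

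A mature miRNA guides an Argonaute protein to messenger RNAs through its seed, bases 2 to 8, and lowers their translation and stability. miR-451a and miR-144 are made from a common transcript in erythroid precursors, and miR-451a is cut by the Argonaute protein AGO2 instead of Dicer. It accumulates in red cells, which makes it the usual mark of haemolysis in serum work. miR-486 is abundant in red cells too, but its gene lies within the ankyrin gene ANK1, which is also active in muscle, so it does not mark blood alone. Among leukocyte miRNAs, miR-142 is found across blood lineages, miR-150 is highest in mature lymphocytes, and miR-223 is highest in neutrophils and other myeloid cells.

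RefSeq entries of the rat assembly GRCr8 held mature sequences for 7 of 11 names looked for, miR-144-3p among them. They show what the names below stand for in the rat, and the capitals mark the seed.
miR-451a (rno-miR-451-5p, chr10:63459585-63459606, + strand): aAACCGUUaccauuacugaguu
miR-144-3p (chr10:63459446-63459465, + strand): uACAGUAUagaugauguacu
miR-144-5p (chr10:63459409-63459431, + strand): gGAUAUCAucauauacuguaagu
miR-142a-5p (rno-miR-142-5p, chr10:73055119-73055139, + strand): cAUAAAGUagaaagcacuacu
miR-142a-3p (rno-miR-142-3p, chr10:73055155-73055177, + strand): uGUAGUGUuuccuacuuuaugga
miR-223-3p (chrX:65151450-65151470, + strand): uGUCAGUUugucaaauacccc
miR-223-5p (chrX:65151408-65151430, + strand): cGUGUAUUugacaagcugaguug
The 7 sequences have 7 different seeds, and no other of the 724 mature rat entries shares one of them. Their lengths of 20 to 23 bases are alike, and miR-486 and miR-150 are not among them. How evenly adapter ligation and PCR turn each sequence into reads was not measured. Comparisons between different miRNAs below are therefore of reads, and their order in molecules may differ. The hairpins of miR-144 and miR-451a lie on the same strand of chromosome 10 with 89 bases between them.

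Blood-cell miRNAs held a small part of both libraries, and most of that part was miR-486. The 10 miRNAs together had 825 reads in NC-Exo, which is 0.804% of the library (0.750 to 0.861%), and 1169 reads in HC-Exo, which is 0.878% (0.829 to 0.929%). miR-486a-5p alone made up 79.3% of these reads in NC-Exo against 74.9% in HC-Exo. Without both arms of miR-486, the remaining 8 miRNAs had 163 reads in NC-Exo, or 0.159% (0.135 to 0.185%), and 268 reads in HC-Exo, or 0.201% (0.178 to 0.227%). These sums are a description, and no test was made on them.

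**Figure D1:**
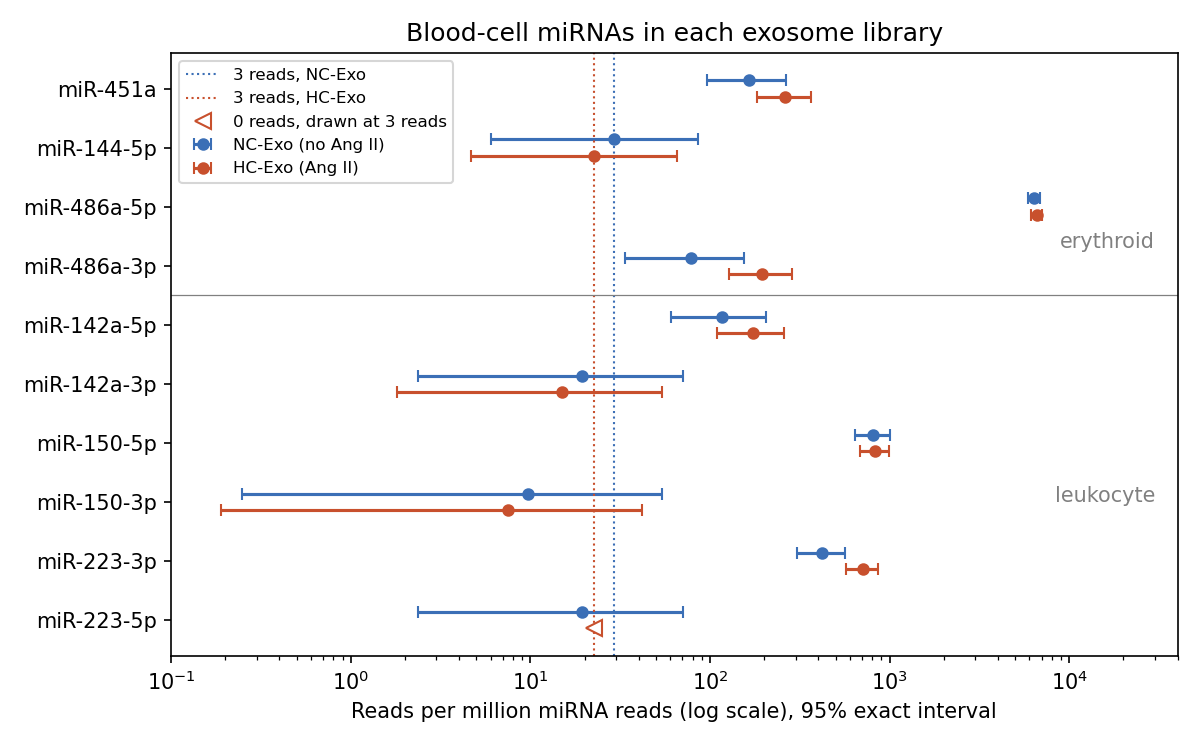
Level of each of the 10 blood-cell miRNAs in NC-Exo (blue) and HC-Exo (red), in RPM on a log scale, with 95% exact intervals as bars and the level of 3 reads in each library as dotted lines. miR-486a-5p lies apart at 6374 and 6571 RPM, and the 4 lowest miRNAs lie at or under 3 reads in both libraries.

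Among the erythroid miRNAs, mmu-miR-451a had 17 reads in NC-Exo, or 166 RPM (96.5 to 265), and 35 reads in HC-Exo, or 263 RPM (183 to 366). It was the miRNA of rank 199 in NC-Exo and of rank 173 in HC-Exo. The intervals of the 2 libraries overlapped. Its neighbour miR-144-5p, the other erythroid hairpin product with a row, had 3 reads in each library, which is 29.2 RPM in NC-Exo and 22.5 RPM in HC-Exo. This equals the floor of 3 reads used here for a library at or under that number, so no ratio is given for miR-144-5p.
mmu-miR-486a-5p had 654 reads in NC-Exo, or 6374 RPM (5896 to 6880), and 875 reads in HC-Exo, or 6571 RPM (6144 to 7020). It ranked 29 in NC-Exo against 30 in HC-Exo, far above every other blood-cell miRNA. The opposite arm, miR-486a-3p, had 8 reads in NC-Exo, or 78.0 RPM (33.7 to 154), and 26 reads in HC-Exo, or 195 RPM (128 to 286). Of the reads of the 4 erythroid miRNAs, miR-486a-5p held 95.9% in NC-Exo against 93.2% in HC-Exo. The erythroid share of the library was 0.665% in NC-Exo (0.616 to 0.716%) and 0.705% in HC-Exo (0.661 to 0.752%). Without miR-486 it was 0.0195% in NC-Exo (0.0119 to 0.0301%) and 0.0285% in HC-Exo (0.0202 to 0.0392%). The erythroid share therefore depended almost wholly on miR-486, whose gene is not restricted to blood.

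Among the leukocyte miRNAs, mmu-miR-150-5p was the highest, with 83 reads in NC-Exo, or 809 RPM (644 to 1003), and 110 reads in HC-Exo, or 826 RPM (679 to 996). It was nearly level between the libraries, at rank 94 in NC-Exo and rank 99 in HC-Exo. mmu-miR-223-3p had 43 reads in NC-Exo, or 419 RPM (303 to 564), and 94 reads in HC-Exo, or 706 RPM (571 to 864). These intervals did not overlap, and miR-223-3p stood at rank 139 in NC-Exo and rank 103 in HC-Exo. miR-142a-5p had 12 reads in NC-Exo, or 117 RPM (60.4 to 204), and 23 reads in HC-Exo, or 173 RPM (110 to 259), with overlapping intervals.
The other 3 leukocyte rows were at the limit of detection. miR-142a-3p had 2 reads in each library and miR-150-3p had 1 read in each. miR-223-5p had 2 reads in NC-Exo and 0 of 133155 in HC-Exo, where the interval allows a level of up to 27.7 RPM. The leukocyte share of the library was 0.139% in NC-Exo (0.117 to 0.164%) and 0.173% in HC-Exo (0.151 to 0.197%).
By level, the order in NC-Exo was miR-486a-5p, miR-150-5p, miR-223-3p and miR-451a, each apart from the next by its interval, followed by miR-142a-5p and miR-486a-3p. In HC-Exo the first 4 were the same, but miR-150-5p and miR-223-3p were no longer apart by their intervals, and miR-486a-3p stood above miR-142a-5p. Neither miR-451a, miR-142a-5p and miR-486a-3p in NC-Exo nor the same 3 in HC-Exo could be put in order beyond counting error, as the intervals of neighbours overlapped.

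To compare the libraries, each miRNA with a sum of at least 10 reads was tested by a two-sided exact binomial test on its reads, with Benjamini-Hochberg adjustment over all 340 such miRNAs. It compares a pair of libraries and says nothing of the spread within a condition. The 340 still include rows with identical counts, such as those of miR-486b, while members were counted once. A call needed an adjusted p under 0.05 and at least a 2-fold ratio. Of the 10 blood-cell miRNAs, 6 had enough reads, and 0 of the 6 were called, against 4.71% of all tested miRNAs (16 of 340). At an unadjusted p under 0.05, without the limit on the ratio, there were 2 of 6, against 32.4% of all tested. By an adjusted p alone there was 1 of 6, miR-223-3p, against 22.4% of all tested. A ratio of at least 2-fold, with no test, was seen in 1 of 6, miR-486a-3p, against 15.6% of all tested.
For miR-223-3p, HC-Exo was 1.68-fold above NC-Exo (1.16 to 2.48), a log2 ratio of 0.75 with an adjusted p of 0.0241 (exact binomial test). This passed the limit on p but not the limit on the ratio. Scaling the libraries in other ways moved its adjusted p over 0.0293 to 0.0869 (exact binomial test), and 4 of the 7 other scalings left it above 0.05. Allowing for a spread between cultures, assumed as a coefficient of variation of 0.1, gave by the exact test of edgeR an adjusted p of 0.242 for it.
For miR-486a-3p the ratio was 2.50 (1.10 to 6.40), a log2 ratio of 1.32 with an adjusted p of 0.0879 (exact binomial test), which missed the threshold. Over the other scalings its adjusted p was 0.0870 to 0.127 (exact binomial test), and with 5 reads added to each library as a pseudocount its log2 ratio was 0.88, under 2-fold.
The ratio of miR-451a was 1.59 (0.865 to 3.02), a log2 ratio of 0.67 with an adjusted p of 0.288 (exact binomial test). That of miR-142a-5p was 1.48 (0.705 to 3.26), with an adjusted p of 0.528 (exact binomial test). Neither difference was detectable at this depth, and both intervals hold a ratio of 1 as well as a doubling.
miR-486a-5p was more deeply counted, and its ratio of 1.03 lay within 0.931 to 1.14 (exact binomial test, adjusted p = 0.761). The ratio of miR-150-5p was 1.02 (0.761 to 1.37), with an adjusted p of 0.998 (exact binomial test). No direction is given for either, as both intervals hold 1 and a shift of all log2 ratios by the choice of scaling, from -0.01 to -0.12, was enough to turn their sign under 5 of the 7 other scalings.
The median log2 ratio of the 6 was 0.61, against 0.10 for all 340 tested, of which 80% lay between -0.70 and 1.04. All 6 had a ratio above 1 by library totals, against 56.2% of all tested, a count that includes miR-486a-5p and miR-150-5p at ratios near 1. The 6 include both arms of miR-486a. Members with too few reads to test give no direction, as all lay at or under the floor of 3 reads. miR-144-5p, miR-142a-3p and miR-150-3p had equal reads in both libraries, so their RPM was lower in HC-Exo only through its larger total. miR-223-5p went from 2 reads to 0.

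**Figure D2:**
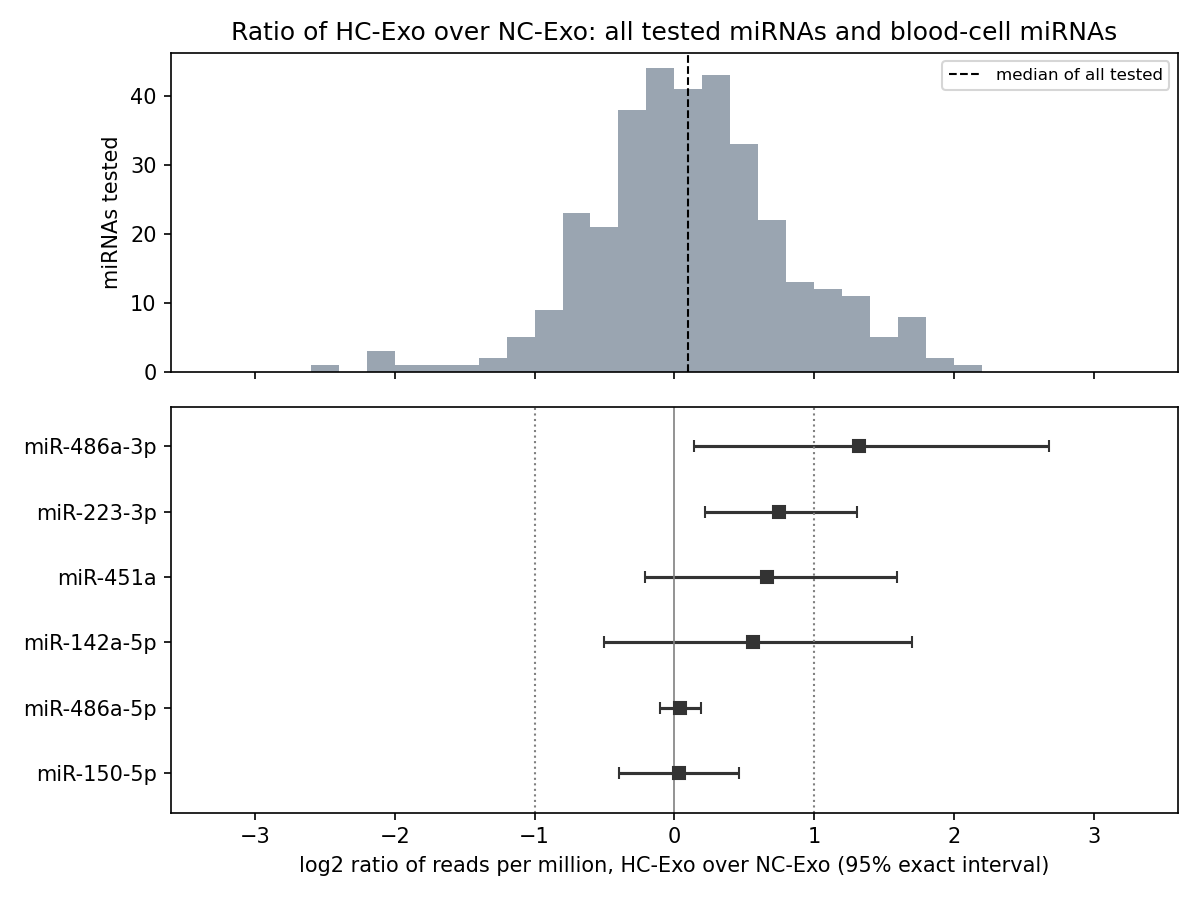
Upper panel, histogram of log2 ratios (HC-Exo over NC-Exo) for the 340 tested miRNAs, with their median of 0.10 as a dashed line. Lower panel, the log2 ratio of the 6 tested blood-cell miRNAs with 95% exact intervals, where dotted lines mark a 2-fold difference. The intervals of miR-223-3p and miR-486a-3p lie above 0 and those of the other 4 hold 0.

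Ratios of reads within a library do not depend on how libraries are scaled, and 5 pairs were compared by Fisher's exact test with adjustment over the 5. miR-451a set against miR-23a-3p, a miRNA that red cells hold little of, is a common index of haemolysis in serum work. Whether it reads haemolysis in exosomes of cultured heart cells was not tested. Over both libraries miR-23b-3p had 7884 reads beside 8351 of miR-23a-3p, and whether these rows share reads was not tested. miR-23a-3p was itself abundant, with 3933 reads in NC-Exo (rank 7) against 4418 in HC-Exo (rank 8). Thus miR-23a-3p exceeded miR-451a 231-fold in NC-Exo and 126-fold in HC-Exo, so that log2 of miR-451a over miR-23a-3p was -7.85 and then -6.98. The index was higher in HC-Exo by 0.87 on the log2 scale, which missed the threshold by Fisher's exact test (adjusted p = 0.0834). The RPM of miR-23a-3p was itself lower in HC-Exo, with a log2 ratio of -0.21 (exact binomial test, adjusted p = 2.46e-09).
miR-223-3p over miR-150-5p, a myeloid against a lymphoid miRNA, was 0.518 in NC-Exo (0.350 to 0.758) and 0.855 in HC-Exo (0.642 to 1.14). The difference of 0.72 on the log2 scale missed the threshold by Fisher's exact test (adjusted p = 0.0834). miR-451a over miR-223-3p, an erythroid against a myeloid miRNA, was 0.395 in NC-Exo (0.211 to 0.708) and 0.372 in HC-Exo (0.245 to 0.554). The log2 difference was -0.09 (Fisher's exact test, adjusted p = 0.863).
Arms of 1 hairpin were compared too. miR-486a-5p exceeded miR-486a-3p 81.8-fold in NC-Exo (41.2 to 190) and 33.7-fold in HC-Exo (22.8 to 51.8), a log2 difference of -1.28 short of the threshold by Fisher's exact test (adjusted p = 0.0834). In miR-142a, the 5p arm led in both libraries. The 3p arm was 0.167 of the 5p arm in NC-Exo (0.0181 to 0.749) and 0.0870 in HC-Exo (0.00994 to 0.352), and the log2 difference of -0.94 rested on 4 reads of the 3p arm in all (Fisher's exact test, adjusted p = 0.761). The pairs of miR-144-3p with miR-451a and with miR-144-5p could not be formed.

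**Figure D3:**
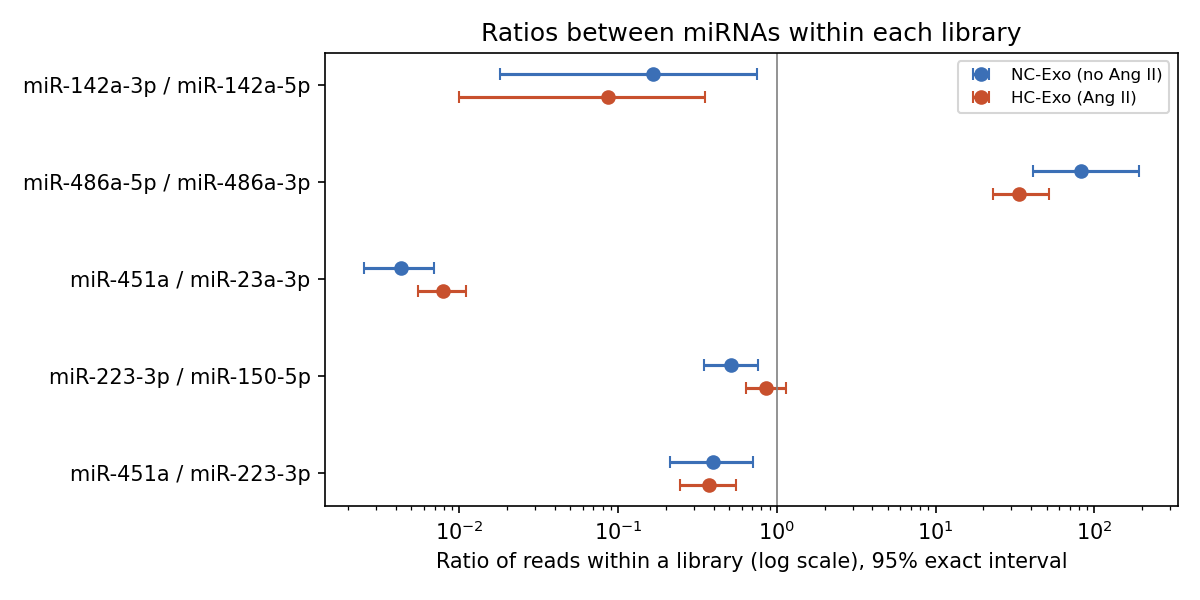
Ratio of the reads of a pair of miRNAs within NC-Exo (blue) and HC-Exo (red), on a log scale with 95% exact intervals, where the grey line marks equal reads. miR-451a is below 0.01 of miR-23a-3p in both libraries, and intervals of NC-Exo and HC-Exo overlap in all 5 pairs.

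Set beside miRNAs that mark other cells, miR-451a and the leukocyte miRNAs were low against the heart's most abundant miRNAs. miR-451a lay among the heart's rarer miRNAs, and miR-150-5p and miR-223-3p lay above some of these. Per 1000 reads of miR-1a-3p, the muscle miRNA that led both libraries with 16614 reads in NC-Exo against 23271 in HC-Exo, there were 1.02 reads of miR-451a in NC-Exo against 1.50 in HC-Exo. The leukocyte miRNAs together had 8.61 reads per 1000 of miR-1a-3p in NC-Exo against 9.88 in HC-Exo. The erythroid miRNAs had 41.0 in NC-Exo against 40.4 in HC-Exo, but only 1.20 and 1.63 without miR-486.
Of the 6 muscle miRNAs, the 2 lowest in both libraries were miR-208a-3p and miR-499-5p, both encoded in cardiac and slow myosin heavy chain genes, with intervals that overlapped those of miR-451a. miR-208a-3p had 9 reads in NC-Exo, or 87.7 RPM (40.1 to 166), and 24 in HC-Exo, or 180 RPM (115 to 268). miR-499-5p had 10 reads in NC-Exo, or 97.5 RPM (46.7 to 179), and 35 in HC-Exo, or 263 RPM (183 to 366). In HC-Exo miR-499-5p and miR-451a thus had the same number of reads. Of the 6 muscle miRNAs, miR-499-5p alone was called, against 4.71% of all tested. Its log2 ratio was 1.43 (exact binomial test, adjusted p = 0.0225). The third miRNA of a myosin heavy chain gene, miR-208b-3p, was higher, with 57 reads in NC-Exo, or 556 RPM (421 to 720), and 66 in HC-Exo, or 496 RPM (383 to 631). It lay above miR-451a by intervals that did not overlap, while its intervals overlapped those of miR-223-3p. miR-150-5p was above miR-208b-3p in both libraries, with 809 RPM in NC-Exo and 826 RPM in HC-Exo. Their intervals overlapped in NC-Exo but not in HC-Exo. The remaining muscle miRNAs, miR-133a-3p and miR-133b-3p, lay above every blood-cell miRNA but miR-486a-5p in both libraries, with 2095 RPM for miR-133b-3p in NC-Exo as the lowest value. miR-150-5p and miR-223-3p lay above miR-208a-3p and miR-499-5p in both libraries, by intervals that did not overlap.
Endothelial miR-126a-5p and miR-126a-3p together held 9.11% of NC-Exo and 6.68% of HC-Exo, and 5 miRNAs of fibroblasts and smooth muscle held 3.83% and 3.91%. The lowest of these 7 was miR-199a-5p, with 185 RPM in NC-Exo and 443 RPM in HC-Exo, which lay below miR-150-5p and miR-223-3p in both libraries. Of the 5, it alone was called, with a log2 ratio of 1.26 (exact binomial test, adjusted p = 0.00466), against 4.71% of all tested. By an adjusted p under 0.05 (exact binomial test), 3 of the 5 were higher in HC-Exo and 1 was lower, against 22.4% of all tested. miR-126a-5p was also lower at that limit, and neither endothelial miRNA was called. The liver miRNA miR-122-5p, which circulates in serum, had 14 reads in NC-Exo, or 136 RPM (74.6 to 229), and 16 in HC-Exo, or 120 RPM (68.7 to 195). Its intervals overlapped those of miR-451a in both libraries, and its log2 ratio was -0.18 (exact binomial test, adjusted p = 0.850).
A list of 17 further miRNAs that blood cells or serum hold in quantity had 14 rows, 13 of them with enough reads. Most of these are made in many tissues and, like miR-486, do not mark blood alone. Their median level was 780 RPM in NC-Exo and 1179 RPM in HC-Exo, from miR-182-5p, with 2 reads in NC-Exo against 1 in HC-Exo, to miR-25-3p, with 12835 and 15846 RPM. Of the 13, 10 had a ratio above 1 and 3 below. The median log2 ratio was 0.25, against 0.10 for all tested. One was called, the row named miR-155, going from 6 reads in NC-Exo to 29 in HC-Exo, against 4.71% of all tested. The row named miR-155-5p went the other way, from 11 reads to 8, with a log2 ratio of -0.84 (exact binomial test, adjusted p = 0.456). Rows run in order of name, but the row named miR-155 stands between miR-434-5p and miR-450b-3p. Which miRNA that row holds was not tested, and it stays in the counts for this list. Of the 13, 6 had an adjusted p under 0.05 by the exact binomial test, all higher in HC-Exo, against 22.4% of all tested in either direction. Such shares depend on depth as well as on the ratio. miR-25-3p passed at a log2 ratio of 0.30 with 3427 reads over both libraries. With 31 reads, miR-15b-5p did not pass at a log2 ratio of 1.40 (exact binomial test, adjusted p = 0.0720). Those 6 included miR-16-5p, a miRNA that red cells also carry in abundance, which went from 115 reads in NC-Exo to 249 in HC-Exo, with a log2 ratio of 0.74 (exact binomial test, adjusted p = 5.93e-05). The 6 muscle miRNAs had a median log2 ratio of 0.43. By library totals, 4 of them were higher in HC-Exo with an adjusted p under 0.05 (exact binomial test), beside the same 22.4%. Among the 4 was the most deeply counted, miR-1a-3p, at a log2 ratio of only 0.11. Upper-quartile scaling shifted every log2 ratio by -0.12, more than that ratio, so no direction is given for miR-1a-3p. Whether the reads of any blood-cell miRNA came from blood cells, from serum or from the cultured cells themselves was not tested.

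**Figure D4:**
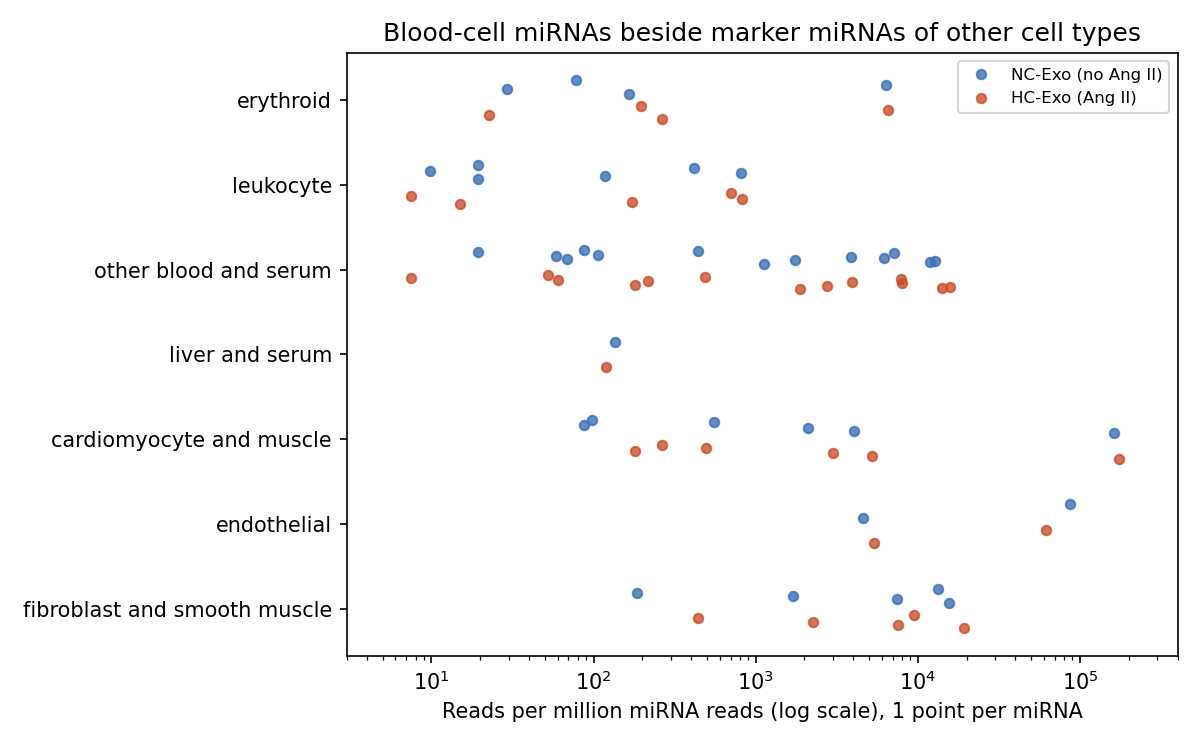
Level of each miRNA of 7 lists in NC-Exo (blue) and HC-Exo (red), in RPM on a log scale, 1 point for each miRNA. Apart from miR-486a-5p, no erythroid or leukocyte miRNA passes 826 RPM, while miR-1a-3p reaches 161917 RPM in NC-Exo and 174766 RPM in HC-Exo. miR-223-5p, at 0 reads in HC-Exo, is not drawn there, and miR-122-5p is drawn once, under liver and serum.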

How the data were processed

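Exosomal small RNA of 1 NC-Exo and 1 HC-Exo library was made with an Illumina small RNA kit. Raw counts for each mature miRNA name, as deposited, were the input. The authors also deposited a normalized signal, 12.1 per read in NC-Exo and 9.23 in HC-Exo, used as 1 alternative scaling. The submitters' processing notes name Bowtie2 and the mouse builds mm9 and GRCm38 with no role, and the miRNA reference is not given in the sources used here. A table of the authors' own comparison (fold changes, p-values and q-values beside scaled counts) was not used.

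Members and lists were chosen with earlier results of these data known. All members were named, beside fixed lists of markers. RPM is reads over library totals. Rows with identical counts were counted once among members, but were kept in the library totals, the adjustment and the shares over all tested miRNAs. Ratios of HC-Exo over NC-Exo were tested across all miRNAs with a sum of at least 10 reads by an exact binomial test, with a floor of 3 reads, and pairs by Fisher's exact test (Python 3.11.15, scipy 1.17.1, numpy 2.4.6, pandas 2.3.3). The binomial test was checked on simulated counts with known changes, counting error alone and the true scaling of the libraries. That check held no spread between cultures and no error of scaling, so it says nothing of either. Alternatives were scalings, filters, thresholds, pseudocounts, the counting of repeated rows, and exact tests with an assumed spread (edgeR 4.0.16, DESeq2 1.42.0 size factors, R 4.3.3). The quasi-likelihood test needs replicates and was not run. With 1 library per condition the spread between cultures is unknown. The depths of 102608 and 133155 reads give wide intervals for miRNAs of few reads.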

Additional observations from a re-analysis of the deposited data

How the results depend on the processing

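No paired analysis was possible because each condition has a single library, which also means that none can be left out. The number of members called was 0 under all 7 other scalings, under 3 other filters on reads, with every row counted, and by the exact test of edgeR assuming a coefficient of variation of 0.1, 0.2 or 0.4, where 2, 0 and 0 of the 6 members had an unadjusted p under 0.05. It was 1 with an adjusted p and no limit on the ratio (miR-223-3p), and 1 with an unadjusted p and the limit (miR-486a-3p), as these thresholds are looser. The number past 2-fold was 0 with at least 10 reads in each library or at least 50 over both, since both leave out miR-486a-3p, and 2 with every row counted, since its repeated row is then counted too. With 5 reads added to each library as a pseudocount, the log2 ratio of miR-486a-3p was 0.88, which is also under 2-fold, and with 0.5 reads it was 1.26. Library totals without the miR-486b rows, chosen after the data were examined, moved log2 ratios by 0.00046 and changed no call.

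Of 60 log2 ratios under alternatives, 50 kept their direction. The log2 ratios of miR-486a-5p and miR-150-5p turned to -0.025 and -0.039 with TMM scaling, to -0.080 and -0.093 with upper-quartile scaling, to -0.054 and -0.068 with the median log2 ratio set to 0, to -0.053 and -0.066 with totals without the 10 most abundant miRNAs, and to -0.066 and -0.080 when scaled to miR-1a-3p. Each of these scalings shifts every log2 ratio by a common amount, which was downward in these libraries.

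Group shares grew when the 10 most abundant miRNAs were left out of the total, to 1.55% in NC-Exo and 1.54% in HC-Exo for erythroid miRNAs and to 0.326% and 0.378% for leukocyte ones. With every row counted, the erythroid share came to 1.31% in NC-Exo against 1.38% in HC-Exo. Without miR-486, which was also chosen afterwards, it was 0.0195% and 0.0285%. Depth limits the ratios of 4 members, miR-451a, miR-142a-5p, miR-486a-3p and miR-223-3p, whose intervals hold a doubling.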
